A study of Mus musculus with 21 samples.

Results

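Gene expression was compared between 24 h and 12 h of activation of the kinase PERK in mouse MIN6m9 cells, a subclone of the insulinoma-derived beta cell line MIN6. The comparison used 4 of the 21 arrays of the series, chosen by their sample titles. The tested cells carried Fv2E-PERK and had received 1 nM AP20187 for 24 h (n = 2 arrays), and they were set against the same cells after 12 h at the same dose (n = 2 arrays). Fv2E-PERK is a PERK kinase domain fused to drug-binding modules, and AP20187 is the small molecule that brings those modules together and so switches the kinase on. Arrays of the same cells after 6 h and 48 h of 1 nM AP20187 (n = 2 each) entered the statistical fit and were used as neighbouring steps. Every array of the fit therefore came from cells with the transgene and the drug, and no mock array was used. With no vehicle array matched to each time, longer exposure to the drug and longer time in culture cannot be told apart. The sources used here do not give the promoter that drives the transgene, nor whether the line is 1 clone. Nothing in the labels says that replicates were separate cultures, so p-values measure only how far these samples lie apart, and that distance may be technical.

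PERK is a kinase of the endoplasmic reticulum (ER) that phosphorylates the translation factor eIF2alpha when unfolded proteins accumulate. Phosphorylation of eIF2alpha lowers protein synthesis in general and favours translation of the transcription factor ATF4, which with its partner CHOP raises genes for amino acid supply, tRNA charging and stress adaptation. This programme is the integrated stress response. Beta cells carry a heavy load of proinsulin in the ER, and loss of PERK is known to damage them. A drug-activated PERK starts the programme without unfolded proteins as the trigger.

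All 4 arrays lay on the same slide, as did the 6 h arrays, whereas both 48 h arrays lay on another slide, so the step after 24 h and the slide cannot be told apart. The signal at the array's 75th percentile was 557 and 469 on the 24 h arrays, against 551 and 513 on the 12 h arrays, over a local background of 22 to 23. Between 52.3 and 52.7% of probes were well above background at 24 h and between 52.99 and 53.3% at 12 h. Precision is limited by how few arrays there are. Replicates correlated across tested entries at 0.994 for 24 h and 0.997 for 12 h (Pearson, across probes, which are not independent). All 12 beta cell markers had a probe and 11 were well above background on all 4 arrays. The glucose transporter gene Slc2a2 was the exception, above background on 0 of the 24 h arrays and 1 of the 12 h arrays, and it was not tested. The summed linear signal of the 12 markers, in units of the 75th percentile, was 1490 and 1716 at 24 h, against 1540 and 1712 at 12 h. The cells were bulk samples, so fewer cells of a type and less RNA per cell cannot be told apart.

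In the 12 to 24 h step, 7047 of 24838 tested entries changed, which is 28.4% (limma, Benjamini-Hochberg adjusted p under 0.05). An entry is a gene, represented by its brightest probe, or a probe without a gene symbol. Of these, 3620 were higher at 24 h (14.6% of those tested) and 3427 were lower (13.8%), so that 51.4% of the calls were rises. At least 2-fold changes were fewer, with 494 higher (1.99%) and 707 lower (2.85%). Among all the calls, 171 rises were well above background on no 12 h array and 398 falls on no 24 h array. The sizes of those changes rest on signals at background. Scaling the arrays to spike-in probes moved the median of all tested entries to 0.25 (log2), against 0.02, and left 1514 higher and 682 lower, 68.9% of them rises. Without 12 h replicate 1 the counts were 1797 higher and 1787 lower, and without 12 h replicate 2 they were 1653 and 1582. Signals below are on a log2 scale with the 75th percentile of the array set to 0, all changes are 24 h minus 12 h on the log2 scale with the standard error of the fit, and "rose" or "fell" means that the adjusted p was under 0.05.

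**Figure D1:**
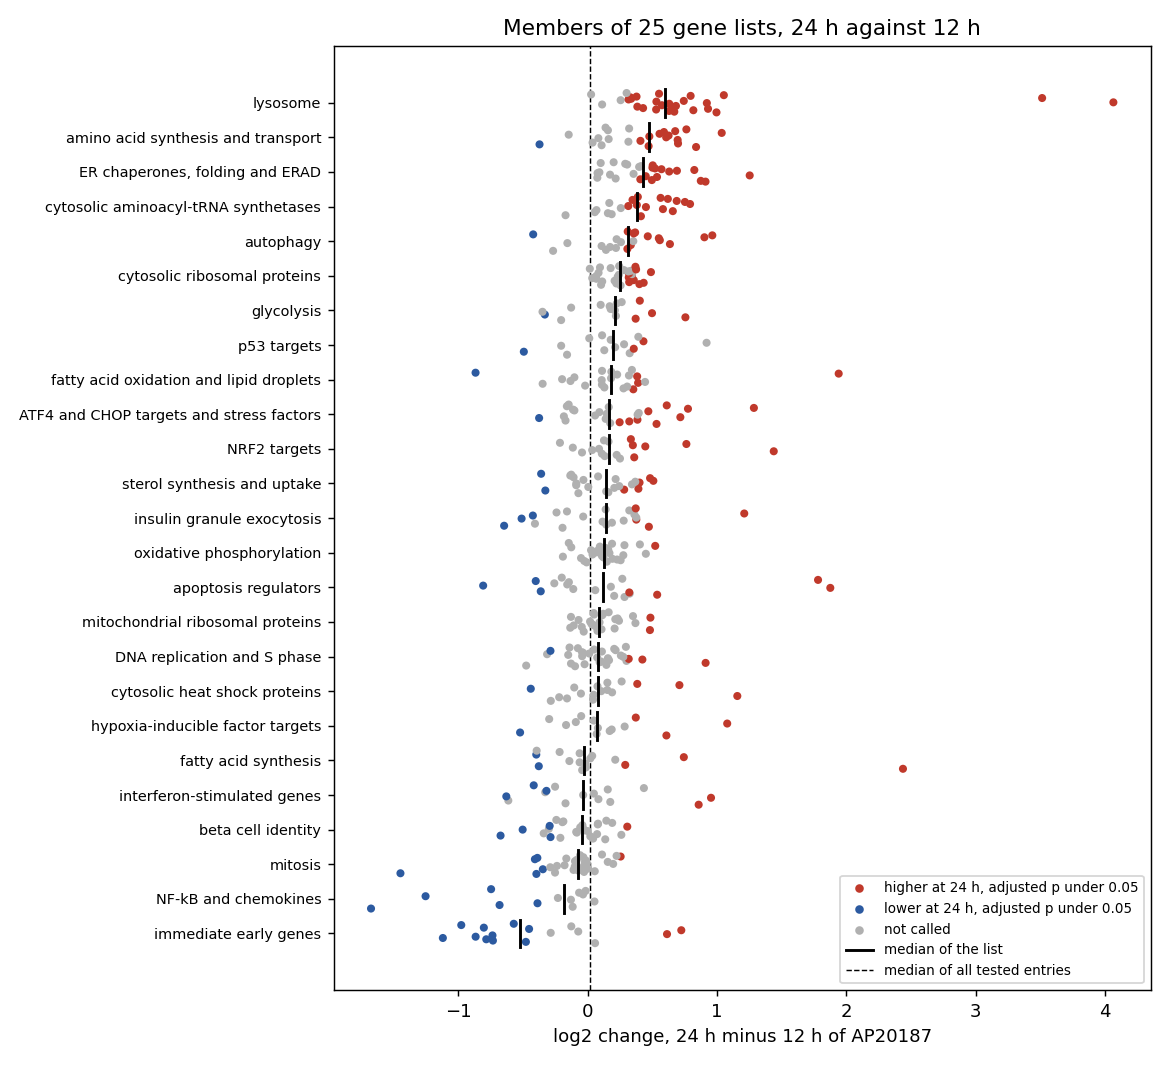
Log2 change (24 h minus 12 h) of every measured member of 25 gene lists, 1 point per gene, with the list's median as a bar and the median of all tested entries as a dashed line. The lysosome list has the highest median (0.60) and the immediate early list the lowest (-0.53).

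Lysosomal genes rose as a group between 12 and 24 h. Of 28 measured members 24 rose and 0 fell, where 14.6% of all tested entries rose, and the median change was 0.60. The 24 h arrays lay above both 12 h arrays for 26 of the 28 and below them for 0, patterns found in 33.6% and 30.5% of all tested entries. The list's risen members included proteases, glycosidases, membrane proteins and subunits of the proton pump. The list had behaved otherwise in the step before. From 6 to 12 h, 2 members were higher and 9 lower, where 7.8% and 6.32% of all entries were (14.1% in either direction). The median was -0.18. Both steps use the same 12 h arrays, with opposite sign, so the dip, the rise and their difference are not separate observations. The same limit holds wherever neighbouring steps are compared below, through the arrays of the time they share. The difference between the steps was itself positive and past the threshold for 20 of the 28 genes, against 3.54% of all entries (879 higher and 1157 lower), although over all entries that difference was called for 173 and 163, against 2036, when 12 h replicate 1 or 2 was left out. From 24 to 48 h, when 49.9% of all entries changed, 19 were higher still and 2 lower (26.3% and 23.6% of all entries), with a median of 0.48.

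The largest rises in the list belonged to Gpnmb and Lgals3. Gpnmb, a membrane glycoprotein of endolysosomes and melanosomes, measured 1.17 and 1.46 on the 24 h arrays, against -2.81 and -2.69 on the 12 h arrays. The groups did not overlap, and the change was 4.06 ± 0.22 (limma adjusted p = 0.00051), or 16.7-fold. Lgals3 encodes galectin-3, a lectin that binds sugars exposed on damaged lysosomes, and its signal was 2.83 on each 24 h array, against -0.93 and -0.44 at 12 h. Its change was 3.51 ± 0.17 (limma adjusted p = 0.00038), or 11.4-fold. Both genes had started to climb earlier, with mean signals over 6, 12, 24 and 48 h of -4.73, -2.75, 1.31 and 2.93 for Gpnmb and -2.11, -0.68, 2.83 and 4.73 for Lgals3. For each of them the 12 to 24 h step exceeded the 6 to 12 h step by 2.09 (limma adjusted p = 0.027 for Gpnmb and 0.014 for Lgals3).

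The other lysosomal genes changed by less and included several that had been lower at 12 h than at 6 h. Npc1, which exports cholesterol from lysosomes, measured -0.36 and -0.71 at 24 h, against -1.37 and -1.80 at 12 h (change 1.05 ± 0.18). Atp6v0d1, a subunit of the proton pump that acidifies lysosomes, was at 4.94 and 5.15, against 4.18 and 3.93 (0.99 ± 0.12). In both genes the weaker 24 h array stood clear of the stronger 12 h array. Ctsd, an aspartic protease, was at 5.33 and 5.67 on the 24 h arrays, against 4.59 and 4.55 at 12 h (0.93 ± 0.12). Its mean had been 4.94 at 6 h, but the 6 to 12 h step did not pass the test (limma adjusted p = 0.084). Hexa, which degrades gangliosides, was lower at 12 h than at 6 h before it rose, with means of 4.61, 4.14, 4.88 and 5.41 at 6, 12, 24 and 48 h (limma adjusted p = 0.025 for the 6 to 12 h step). Psap, the precursor of the saposin activators, had the same course, with means of 4.39, 3.65, 4.20 and 4.94 (limma adjusted p = 0.0081). Tfeb, the transcription factor known to drive lysosomal genes, measured -2.18 and -1.95 at 24 h, against -2.47 and -2.26 at 12 h, and did not pass the test (0.30 ± 0.12, limma adjusted p = 0.099). With 1 array left out at a time 16 to 22 members rose, and with spike-in scaling 12 rose and 0 fell.

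**Figure D2:**
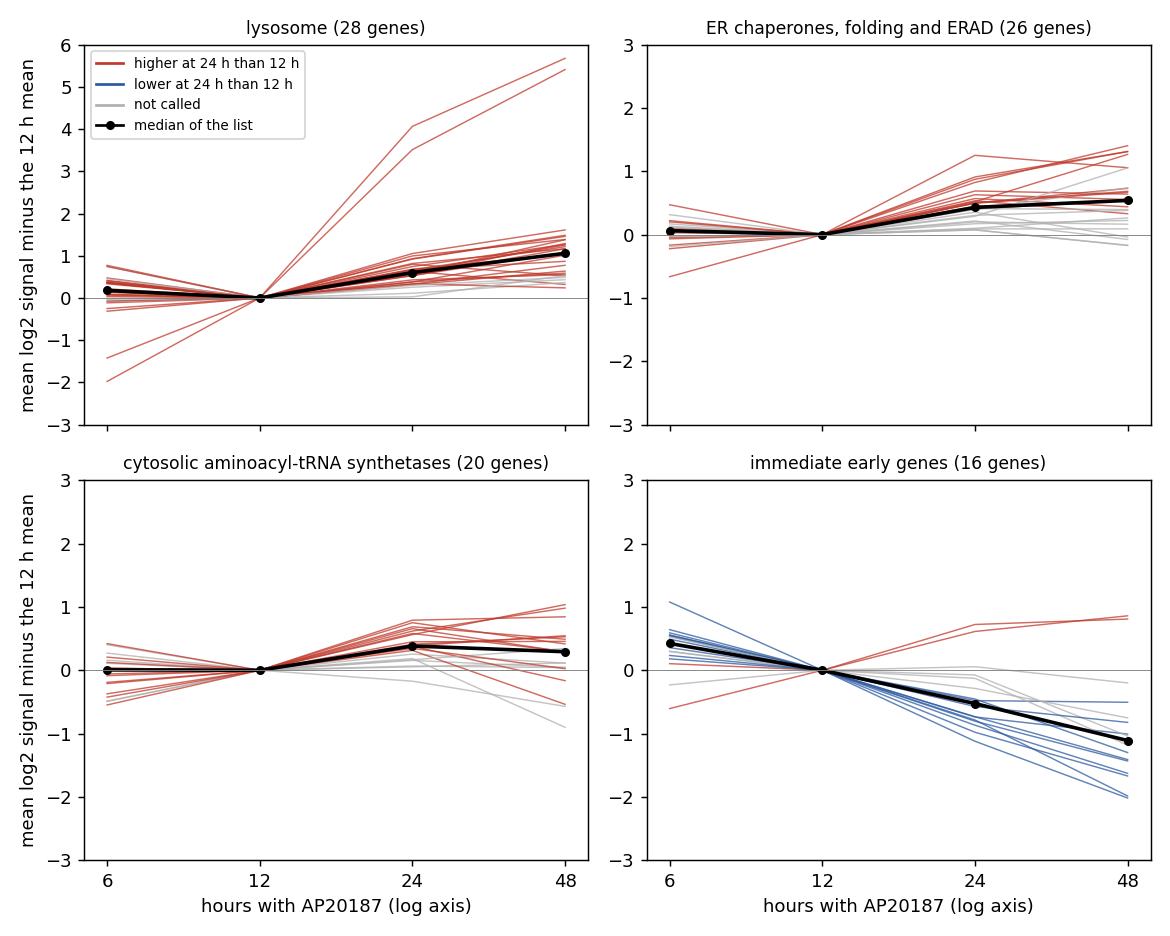
Mean log2 signal of each measured member at 6, 12, 24 and 48 h of AP20187, set to 0 at 12 h, for 4 gene lists, with the list's median in black; n = 2 arrays per time. The lysosomal median dips at 12 h and climbs at 24 and 48 h, the ER median starts to climb after 12 h, and the immediate early median falls at every step.

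The promoters of the risen lysosomal genes are shown because TFEB and its relatives bind the palindrome TCACGTGA, the core of the motif that many lysosomal genes share. In RefSeq's windows of 250 bases before the gene start (GRCm38.p6), the palindrome, which reads the same on both strands, was present in 4 of 21 windows of risen lysosomal genes (19.0%), those of Atp6v1a, Ctsa, Ctsd and Mcoln1. It was present in 258 of all 32851 windows (0.785%). Among all measured members of the list 5 of 26 windows held it (19.2%), including that of Gla, which did not pass the test. The share among risen genes was thus near that of the list. The shorter CACGTG, which lies inside the palindrome, was in 9 of the 21 windows (42.9%) and in 6.02% of all windows. It was in 10 of the 26 windows of measured members (38.5%). A match is a description of these letters and not of a bound factor. The windows of Ctsa (chr2:164833523-164833772, plus strand), Ctsd (chr7:142387828-142388077, minus strand) and Atp6v1a (chr16:44139260-44139509, minus strand) are printed in the direction of the gene, with the palindrome in capitals.
Ctsa: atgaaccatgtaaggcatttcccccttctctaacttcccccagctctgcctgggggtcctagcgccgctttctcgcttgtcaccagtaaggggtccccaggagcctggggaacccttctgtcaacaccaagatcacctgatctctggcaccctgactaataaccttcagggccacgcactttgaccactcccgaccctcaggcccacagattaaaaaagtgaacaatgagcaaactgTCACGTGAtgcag
Ctsd: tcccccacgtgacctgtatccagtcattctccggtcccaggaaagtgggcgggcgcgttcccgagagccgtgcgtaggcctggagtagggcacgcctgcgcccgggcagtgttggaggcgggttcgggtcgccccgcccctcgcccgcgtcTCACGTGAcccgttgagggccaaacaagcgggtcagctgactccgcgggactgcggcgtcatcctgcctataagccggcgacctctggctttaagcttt
Atp6v1a: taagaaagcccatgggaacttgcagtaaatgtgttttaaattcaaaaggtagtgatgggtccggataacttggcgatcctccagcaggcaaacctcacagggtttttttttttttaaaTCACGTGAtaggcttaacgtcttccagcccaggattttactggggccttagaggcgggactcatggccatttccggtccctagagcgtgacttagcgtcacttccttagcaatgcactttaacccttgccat
The palindrome began 13 bases before the start of Ctsa, 99 bases before that of Ctsd and 132 bases before that of Atp6v1a. Ctsa, which protects other lysosomal enzymes and acts as a carboxypeptidase, measured 4.74 and 4.82 at 24 h, against 4.03 and 3.90 at 12 h (0.82 ± 0.09). Atp6v1a, the catalytic subunit of the proton pump, was at 4.90 and 4.76, against 4.17 and 4.16 (0.67 ± 0.08).

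Genes of autophagy, which delivers cell contents to lysosomes, rose in 11 of 21 measured members and fell in 1, with a median of 0.31. Of all entries 14.6% rose and 13.8% fell. Sqstm1, a receptor that brings ubiquitinated cargo to autophagosomes, measured 5.06 and 5.04 at 24 h, against 4.12 and 4.06 at 12 h (0.96 ± 0.07, limma adjusted p = 0.001). Map1lc3b, which coats the autophagosome membrane, measured 4.80 and 4.85, against 3.99 and 3.86 (0.90 ± 0.09). The protease Atg4b (0.63 ± 0.09) and the LC3 relative Gabarapl1 (0.56 ± 0.08) also rose. The kinase Ulk1, which starts autophagy, was the 1 member that fell, with 2.57 and 2.51 at 24 h, against 2.99 and 2.94 at 12 h (-0.42 ± 0.08), a call lost without 12 h replicate 1. In fits lacking 12 h replicate 1 or 2, 5 and 4 members rose, and 3 rose with spike-in scaling.

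ER chaperones, folding enzymes and components of ER-associated degradation rose in 14 of 26 measured members and fell in 0, where 14.6% and 13.8% of all entries did. The list's median was 0.43. Dnajb9, a co-chaperone of BiP, had the largest change in the list, with 4.84 and 4.71 at 24 h, against 3.52 and 3.53 at 12 h (1.25 ± 0.09, limma adjusted p = 0.00099). Hspa5, which encodes the chaperone BiP, measured 7.79 and 7.78, against 7.02 and 7.17 (0.69 ± 0.09, limma adjusted p = 0.004). Calr, the lectin chaperone calreticulin, measured 4.98 on each 24 h array, against 4.25 and 3.96 at 12 h (0.87 ± 0.11). In each of these genes the replicates of a time lay closer together than the times did. Hyou1, a nucleotide exchange factor for BiP, rose by 0.82 ± 0.10, and Atf6, the ER membrane precursor of a transcription factor, rose by 0.91 ± 0.12. Xbp1, the target of the other ER stress sensor IRE1, was at 6.68 and 6.58 at 24 h, against 6.36 and 6.51 at 12 h, and Herpud1, a part of the degradation machinery, was at 5.10 and 4.91, against 4.93 and 4.90. Neither passed the test (0.20 ± 0.09 and 0.09 ± 0.10). From 6 to 12 h 1 of the 26 was higher and 1 lower (7.8% and 6.32% of all entries), with a median of -0.06. The 12 to 24 h step exceeded that step in 6 of 26 genes, against 3.54% of all entries. Leaving out 1 array at a time gave 13 to 17 rises, and spike-in scaling gave 5.

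The ER stress response element, CCAAT and CCACG with 9 bases between them, searched on either strand, is the site through which NF-Y with ATF6 or XBP1 is known to act on ER chaperone genes. It occurred in 6 of 11 promoter windows of the risen ER genes (54.5%), those of Calr, Canx, Creld2, Derl3, Hsp90b1 and Hspa5, and in 37 of all 32851 windows (0.113%). Among all measured members of the list 9 of 23 windows held it, including those of Dnajc3, Pdia6 and Syvn1, which did not pass the test. The windows of Hspa5 (chr2:34771840-34772089, plus strand) and Calr (chr8:84846932-84847181, minus strand) are given with the element in capitals. In Calr it lies on the strand opposite to the gene.
Hspa5: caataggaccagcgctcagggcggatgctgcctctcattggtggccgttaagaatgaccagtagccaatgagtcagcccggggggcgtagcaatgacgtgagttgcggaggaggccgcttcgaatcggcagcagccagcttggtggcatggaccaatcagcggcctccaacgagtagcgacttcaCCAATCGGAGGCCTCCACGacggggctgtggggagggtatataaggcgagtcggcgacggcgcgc
Calr: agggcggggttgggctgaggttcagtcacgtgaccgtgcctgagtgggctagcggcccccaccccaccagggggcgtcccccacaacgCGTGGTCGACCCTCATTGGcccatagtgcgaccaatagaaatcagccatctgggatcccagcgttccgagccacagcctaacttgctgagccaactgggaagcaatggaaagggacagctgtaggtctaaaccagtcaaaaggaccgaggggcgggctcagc

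Targets of ATF4 and CHOP and related stress factors rose in 9 of 24 measured members and fell in 1, with a median of 0.17. The shares of all entries were 14.6% and 13.8%. Ppp1r15a, the phosphatase subunit that removes the phosphate from eIF2alpha, had the largest rise, with 6.20 and 6.24 at 24 h, against 4.94 and 4.93 at 12 h. The change was 1.28 ± 0.08 (limma adjusted p = 0.00056), or 2.44-fold, and it exceeded the 6 to 12 h step by 1.03 (limma adjusted p = 0.011). Ddit3, which encodes CHOP, measured 4.57 and 4.66 at 24 h, against 3.84 and 3.96 at 12 h (0.72 ± 0.09, limma adjusted p = 0.0036). Nupr1, a small stress-induced chromatin protein, measured 6.56 and 6.75, against 5.73 and 6.03 (0.77 ± 0.12). Both genes lay clear of their 12 h values. Trib3, a pseudokinase that restrains ATF4 and AKT signalling, rose by 0.61 ± 0.09, and the transcription factor Atf3 rose by 0.53 ± 0.07, although neither passed with spike-in scaling (limma adjusted p = 0.058 and 0.099).

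The list did not move as 1 block. Atf4 itself measured 8.46 and 8.55 at 24 h, against 8.25 and 8.41 at 12 h, and did not pass the test (0.17 ± 0.09, limma adjusted p = 0.21). The kinase transcripts did not pass either. Eif2ak3, the gene of PERK, was at 2.20 and 1.81, against 1.80 and 1.69 (0.26 ± 0.14), and Eif2ak4, the gene of the eIF2alpha kinase GCN2, was at 0.75 and 0.47, against 0.96 and 0.98 (-0.36 ± 0.11, limma adjusted p = 0.051). No source used here says whether the Eif2ak3 probe detects the transgene. Chac1, a glutathione-degrading enzyme and known ATF4 target, was the 1 member that fell, with 6.74 and 6.84 at 24 h, against 7.22 and 7.11 at 12 h (-0.38 ± 0.09, limma adjusted p = 0.026). Its call was lost without 24 h replicate 1, without either 12 h replicate and with spike-in scaling, with limma adjusted p of up to 0.109 for the left-out arrays and 0.805 for the spike-ins. The list had, without 12 h replicate 1 or 2, 5 rises each and 0 falls, and with spike-in scaling 3 rises. From 24 to 48 h, 4 members were higher and 9 lower (26.3% and 23.6% of all entries). The 12 to 24 h step exceeded the later step in 9 of 24, against 11.3% of all entries.

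**Figure D3:**
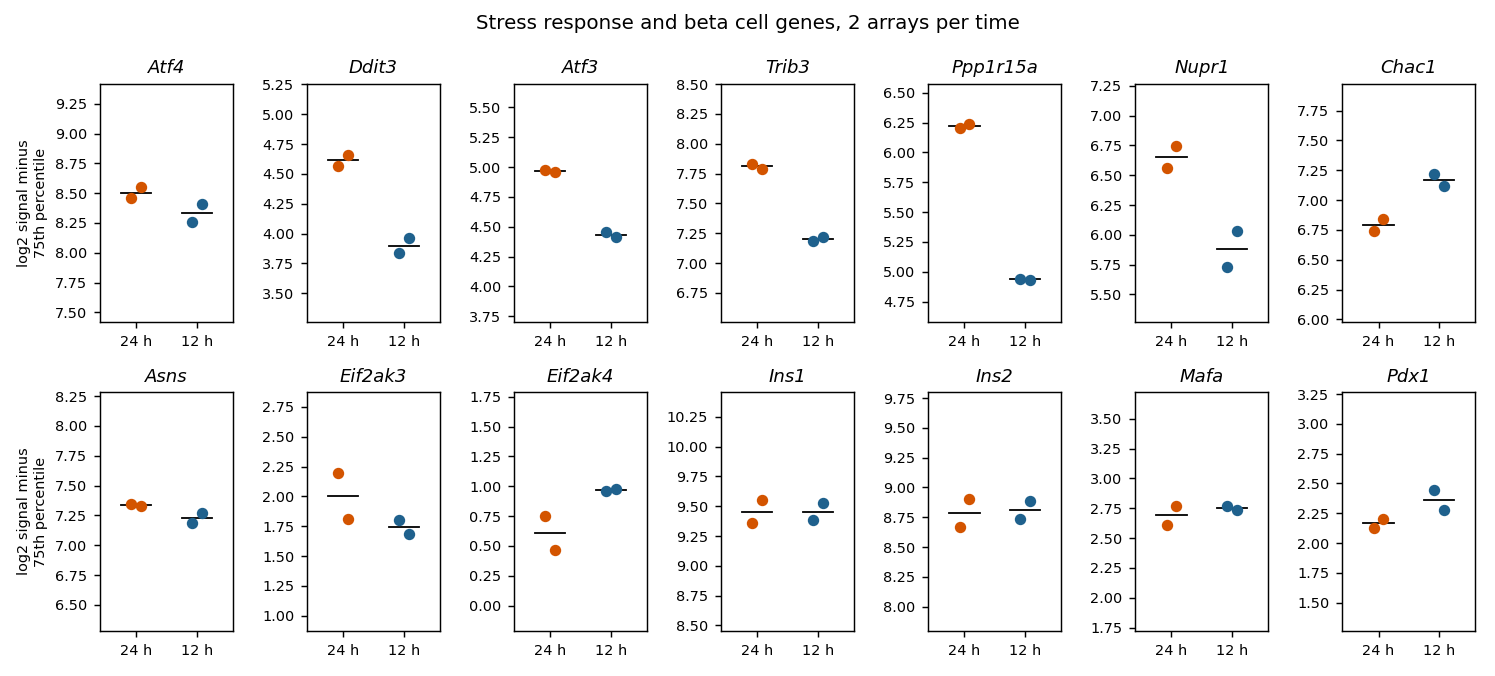
Log2 signal minus the array's 75th percentile for 14 genes, with 1 point per array and a line at the mean of the 2 arrays; each panel spans 2 log2 units. Ppp1r15a, Ddit3, Trib3, Atf3 and Nupr1 are higher at 24 h than at 12 h, Chac1 is lower, and the 24 h and 12 h points overlap for Ins1, Ins2 and Mafa.

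The site TGATGNAA, to which ATF4 or CHOP is known to bind together with a C/EBP factor, was present on either strand in 3 of 14 windows of risen members of this list (21.4%), those of Atf3, Jdp2 and Nupr1, and in 3.45% of all windows. The window of the fallen Chac1 held it too. All measured members of the list had it in 7 of 29 windows (24.1%). Those of Fgf21, Herpud1 and Vldlr were among them, and these genes did not pass the test. Among risen genes of amino acid supply 1 of 12 windows had it (Slc7a11), and among risen tRNA synthetases 2 of 7 (Aars and Tars). All measured members of these lists had it in 3 of 22 (13.6%) and 3 of 13 windows (23.1%). Asns, Got1 and Gars carried it and did not pass the test. The windows of Nupr1 (chr7:126625471-126625720, minus strand) and Slc7a11 (chr3:50443614-50443863, minus strand) are shown with the site in capitals. Slc7a11 has 2 matches, and the match in Nupr1 lies on the strand opposite to the gene.
Nupr1: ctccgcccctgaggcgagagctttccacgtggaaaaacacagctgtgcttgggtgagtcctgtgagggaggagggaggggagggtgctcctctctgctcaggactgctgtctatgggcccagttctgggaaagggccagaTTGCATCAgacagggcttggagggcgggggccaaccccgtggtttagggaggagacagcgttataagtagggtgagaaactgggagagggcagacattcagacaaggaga
Slc7a11: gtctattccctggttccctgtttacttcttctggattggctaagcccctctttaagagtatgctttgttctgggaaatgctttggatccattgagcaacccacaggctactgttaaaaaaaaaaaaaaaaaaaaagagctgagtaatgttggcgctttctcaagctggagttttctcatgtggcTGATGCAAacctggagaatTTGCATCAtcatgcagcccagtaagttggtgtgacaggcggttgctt

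Genes that make or import amino acids rose in 13 of 23 measured cases and fell in 1, where 14.6% and 13.8% of all entries did. Their median was 0.47. Slc38a7, a lysosomal glutamine and asparagine transporter, measured 0.86 and 1.29 at 24 h, against 0.14 and -0.05 at 12 h (1.04 ± 0.15). Aldh18a1, the enzyme that starts proline synthesis, measured 3.16 and 3.22, against 2.50 and 2.21 (0.84 ± 0.12). Cth, which makes cysteine from cystathionine, was at 2.90 and 2.69, against 2.04 and 2.15 (0.70 ± 0.14). In all 3 genes both 24 h arrays lay above both 12 h arrays. Slc7a11, the cystine importer, was less even, with 0.32 and -0.43 at 24 h, against -0.85 and -0.78 at 12 h (0.76 ± 0.22, limma adjusted p = 0.046), and its call was lost without either 12 h array (limma adjusted p of up to 0.159). Asns, the asparagine synthetase gene and a standard ATF4 readout, was at 7.34 and 7.33, against 7.18 and 7.27, and did not pass (0.11 ± 0.08, limma adjusted p = 0.34). The member that fell was Cbs, which makes cystathionine (-0.37 ± 0.09), and its call was lost without 24 h replicate 1, without either 12 h replicate (limma adjusted p of up to 0.117) and with spike-in scaling (0.811). Cth lost its call without either 12 h replicate. There were 7 and 5 rises without 12 h replicate 1 or 2, and 6 with spike-in scaling.

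Cytosolic aminoacyl-tRNA synthetases, the enzymes that charge tRNAs, rose in 13 of 20 measured genes and fell in 0, with a median of 0.38. Of all entries 14.6% rose and 13.8% fell. Nars, for asparagine, measured 5.10 and 4.83 at 24 h, against 4.24 and 4.12 at 12 h (0.79 ± 0.12). Sars, for serine, measured 6.46 and 6.72, against 5.94 and 5.87 (0.69 ± 0.10). Rars, for arginine (0.75 ± 0.12), and Farsb, a subunit of the phenylalanine enzyme (0.66 ± 0.10), rose by similar amounts. Gars, for glycine, was at 7.51 and 7.41, against 7.39 and 7.40 (0.07 ± 0.08), and Cars, for cysteine, was at 5.93 and 5.95, against 6.16 and 6.07 (-0.17 ± 0.08). Neither passed the test. From 6 to 12 h 3 were higher and 2 lower (7.8% and 6.32% of all entries). From 24 to 48 h 2 were higher and 7 lower (26.3% and 23.6% of all entries). The 12 to 24 h step exceeded the later step in 8 of 20, against 11.3% of all entries. The count was 7 without 12 h replicate 2, and with spike-in scaling it was 4.

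Cytosolic ribosomal proteins showed small rises. Of 30 measured members 10 rose and 0 fell, where 14.6% and 13.8% of all entries did. The changes were 0.02 to 0.49, with a median of 0.25. Rps15, of the small subunit, was at 6.79 and 7.14 at 24 h, against 6.45 and 6.51 at 12 h (0.49 ± 0.13), and Rpl18, of the large subunit, was at 7.38 and 7.58, against 7.004 and 7.09 (0.43 ± 0.10). The calls depended on the arrays included: 11 members rose without 24 h replicate 1, but 0 rose without 24 h replicate 2, without 12 h replicate 1, without 12 h replicate 2 or with spike-in scaling. From 24 to 48 h 0 were higher and 14 lower, against 23.6% of all entries lower. Mitochondrial ribosomal proteins rose in 2 of 26 members, a smaller share than the 14.6% of all entries, with a median of 0.08. These were Mrps2 (0.48 ± 0.10) and Mrpl12 (0.48 ± 0.12). Both calls were lost without 12 h replicate 2, that of Mrpl12 also without 24 h replicate 2 or 12 h replicate 1.

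Immediate early genes, which encode short-lived transcription factors and feedback regulators induced by calcium, cAMP and growth signals, were the list with the lowest median, -0.53. Of 16 measured members 10 fell and 2 rose, where 13.8% and 14.6% of all entries did. Egr4, a zinc finger factor, measured 2.68 and 2.60 at 24 h, against 3.91 and 3.61 at 12 h (-1.12 ± 0.12, limma adjusted p = 0.0022). Nr4a1, an orphan nuclear receptor induced by stimulation, measured 5.35 and 5.15, against 6.33 and 6.13 (-0.98 ± 0.11). Fos, a component of AP-1, was at 1.20 and 0.85, against 2.01 and 1.78 (-0.87 ± 0.14). The groups did not overlap in any of the 3. Junb, another AP-1 component, fell by 0.80 ± 0.15 on the log2 scale, and its call was lost without 12 h replicate 1 (limma adjusted p = 0.058). Fosl1 (0.61 ± 0.13) and Ier3 (0.72 ± 0.15) went the other way. Both calls were lost without either 12 h replicate, that of Ier3 also without 24 h replicate 1 and that of Fosl1 with spike-in scaling. Members of the list fell in the neighbouring steps too. The list had a median of -0.42 with 7 lower from 6 to 12 h, against 6.32% of all entries lower. From 24 to 48 h the median was -0.65 with 10 lower, against 23.6% of all entries. For 0 of 16 did the 12 to 24 h fall exceed that of the step before past the threshold. Without 12 h replicate 1, 4 fell, and with spike-in scaling 1 fell and the median was -0.30. The cAMP response element TGACGTCA, through which CREB acts on several such genes, was in 0 of 13 windows of the fallen members and in 1.55% of all windows. Among all measured members 1 of 17 windows held it (5.88%), that of Dusp1. At the share of all windows, 13 windows are too few to show a lack of the element.

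Genes of NF-kB signalling and chemokines fell in 5 of 12 measured members and rose in 0, where 13.8% and 14.6% of all entries did. Ccl2, a monocyte chemoattractant, measured -4.14 and -3.95 at 24 h, against -2.39 and -2.35 at 12 h (-1.68 ± 0.12, limma adjusted p = 0.00089), and its mean had been -2.59 at 6 h. Nfkbie, an inhibitor of NF-kB, measured 0.06 and -0.07, against 1.37 and 1.13 (-1.25 ± 0.10), after 1.80 at 6 h. Both were lower again at 48 h, with means of -5.06 and -1.03. Tnfaip3, a ubiquitin-editing brake on NF-kB (-0.75 ± 0.13), and the chemokine Cxcl1 (-0.68 ± 0.17) fell too, and both calls were lost without 12 h replicate 1 and with spike-in scaling. Nfkb1 and Rela, which encode NF-kB subunits, did not pass the test (0.05 and -0.07). The list's median was -0.18 and turned to 0.05 with spike-in scaling, where 2 fell. The falls numbered 3 without 24 h replicate 2, 2 without 12 h replicate 1 and 3 without 12 h replicate 2.

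Interferon-stimulated genes had 2 of 15 higher and 3 lower, near the 14.6% and 13.8% of all entries. Ifit3, an antiviral protein, measured -0.85 and -0.70 at 24 h, against -1.84 and -1.61 at 12 h (0.95 ± 0.11), and Bst2, which tethers budding viruses, measured -2.27 and -2.07, against -3.17 and -2.88 (0.86 ± 0.13). The transcription factor Irf1 fell, with 2.63 and 2.56, against 3.27 and 3.19 (-0.63 ± 0.08), as did the ISG15 protease Usp18 (-0.42 ± 0.08), whose call was lost without either 12 h replicate. With spike-in scaling 2 rose and 0 fell, and without either 12 h replicate 2 rose and 1 fell.

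Between 12 and 24 h, beta cell identity genes fell about as often as all entries and rose less often. Of 27 measured genes 1 rose and 4 fell, where 14.6% and 13.8% of all entries did, and the median was -0.04. Ins1 measured 9.36 and 9.55 at 24 h, against 9.38 and 9.53 at 12 h (0.00 ± 0.10), and Ins2 measured 8.67 and 8.90, against 8.73 and 8.88 (-0.02 ± 0.13). The insulin genes thus overlapped between the times. Mafa, an insulin gene activator, was at 2.61 and 2.77, against 2.77 and 2.73 (-0.06 ± 0.09), and Pdx1, a master regulator of the pancreas and beta cell, was at 2.13 and 2.20, against 2.44 and 2.28 (-0.20 ± 0.09, limma adjusted p = 0.14). Foxa2, a forkhead factor that opens pancreatic enhancers, measured 3.16 and 2.81, against 3.69 and 3.63 (-0.67 ± 0.12, limma adjusted p = 0.011). Insm1, a zinc finger factor of endocrine cells, measured 5.58 and 5.32, against 6.02 and 5.88 (-0.50 ± 0.11). Nkx2-2 (-0.29 ± 0.08) and Cpe, which trims proinsulin (-0.29 ± 0.08), were the other members that fell, and Neurod1 rose by 0.31 ± 0.09. With all probes averaged, Nkx2-2 (-0.20) and Neurod1 (0.10) were not called. Weaker probes of Cpe did not pass the test (-0.26 and -0.03). None of the 5 calls was made with spike-in scaling, and without 12 h replicate 1 the counts were 0 higher and 0 lower. Leaving out 24 h replicate 2 or 12 h replicate 2 gave 0 higher and 1 lower. Txnip, a glucose-induced inhibitor of thioredoxin, measured 2.70 and 2.28, against 2.65 and 2.52 (-0.10 ± 0.14).

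Genes of insulin granule exocytosis rose in 4 of 20 members and fell in 3, near the 14.6% and 13.8% of all entries, with a median of 0.14. Syt7, a calcium sensor of granule fusion, measured -0.87 and -0.85 at 24 h, against -2.01 and -2.12 at 12 h (1.21 ± 0.09, limma adjusted p = 0.00089), or 2.31-fold. A weaker Syt7 probe did not pass (-0.12, limma adjusted p = 0.73), and with all probes averaged the change in Syt7 was 0.54. The complexins, which clamp the fusion machinery, moved in opposite directions. Cplx1 was at 0.32 and 0.44, against 0.07 and -0.26 (0.47 ± 0.12), and Cplx2 at 5.45 and 5.58, against 6.12 and 6.22 (-0.65 ± 0.10, or -0.43 with all probes averaged). Snap25, a SNARE protein of the plasma membrane, measured 3.91 and 4.14, against 4.55 and 4.52 (-0.51 ± 0.12), after 3.88 at 6 h and before 4.67 at 48 h, so that its 24 h level lay below those of 12 and 48 h. Of these 4, only Syt7 passed with spike-in scaling, and the calls of Cplx1 and Snap25 were each lost in 3 of 4 fits with 1 array left out. The list had 1, 2 and 1 rises without 24 h replicate 1, 24 h replicate 2 and 12 h replicate 2.

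Cell cycle lists had fewer calls than the 14.6% higher and 13.8% lower of all entries, except for falls in mitosis genes. DNA replication and S phase genes had 3 higher and 1 lower of 30, with a median of 0.08. Mitosis genes had 1 higher and 5 lower of 30, with a median of -0.08, and included Prc1, a spindle midzone protein (-0.39 ± 0.08), and the kinase Aurka (-0.40 ± 0.08). Aurkb, a kinase of the chromosomal passenger complex, was near background, with -4.40 and -4.94, against -2.88 and -3.57 (-1.45 ± 0.28), and was well above it on 1 of the 24 h arrays and both 12 h arrays. Calls were lost without 12 h replicate 1 for Aurka and Aurkb, without 24 h replicate 2 for Aurkb and without 12 h replicate 2 for Prc1. In the following step 25 of the 30 mitosis genes and 19 of the 30 S phase genes were lower at 48 h than at 24 h, against 23.6% of all entries. Cdkn1a, the p21 inhibitor of cyclin-dependent kinases, measured 4.03 and 4.13, against 3.76 and 3.69 (0.36 ± 0.08, limma adjusted p = 0.022), a call lost in 3 of 4 fits with 1 array left out and with all probes averaged (0.18). Mitosis genes fell in 2 cases without 12 h replicate 1, 2 without 12 h replicate 2 and 3 without 24 h replicate 2. In the S phase list 5 rose without 24 h replicate 1 and 1 without 12 h replicate 1. Ccnd1, cyclin D1, was well above background on none of the 4 arrays and was not tested.

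Among 18 apoptosis regulators 4 rose and 3 fell, near the 14.6% and 13.8% of all entries. Bid, a BH3-only protein that links death receptors to mitochondria, measured 1.45 and 1.62 at 24 h, against -0.37 and -0.31 at 12 h (1.88 ± 0.09, limma adjusted p = 0.00038), or 3.67-fold. Hrk, another BH3-only protein, measured 1.21 and 1.32, against -0.57 and -0.46 (1.78 ± 0.14), or 3.44-fold. Both had also risen from 6 to 12 h, when the 6 h means were -1.49 for Bid and -2.36 for Hrk. From 24 to 48 h Hrk rose further by 0.51 and Bid, with a step of 0.25, did not pass the test; both had a mean of 1.78 at 48 h. Bak1, a pore-forming effector, rose by 0.54 ± 0.08, and Bmf, a BH3-only protein, fell with -1.60 and -1.77, against -0.81 and -0.94 (-0.81 ± 0.09). Among 14 p53 targets 2 rose and 1 fell, near or below the same shares: Phlda3, an AKT inhibitor (0.43 ± 0.09), Cdkn1a, and the antiproliferative gene Btg2 (-0.49 ± 0.11). Phlda3 lost its call without 12 h replicate 2, and Btg2 without 24 h replicate 2 or 12 h replicate 1. Leaving out either 12 h replicate, 3 apoptosis regulators rose and 1 fell.

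Lipid lists had about as many calls as all entries, of which 28.4% changed, and held single large changes. Acacb, which makes the malonyl-CoA that restrains fatty acid entry into mitochondria, measured -0.74 and -0.96 at 24 h, against -3.32 and -3.25 at 12 h (2.44 ± 0.11, limma adjusted p = 0.00034), or 5.42-fold. Its mean had been -3.67 at 6 h, and the 12 to 24 h step exceeded the 6 to 12 h step by 2.06 (limma adjusted p = 0.0047). Plin2, a lipid droplet coat protein, measured 3.68 and 3.82, against 1.74 and 1.88 (1.94 ± 0.09), or 3.84-fold, and rose further to a mean of 5.14 at 48 h. Plin5, a coat protein of droplets next to mitochondria, fell, with -1.41 and -1.43, against -0.62 and -0.48 (-0.87 ± 0.11). In all, fatty acid synthesis had 3 higher and 2 lower of 16, including Fasn (0.74 ± 0.14), and oxidation and droplets 4 higher and 1 lower of 22. Sterol genes had 5 higher and 2 lower of 23. Their largest rise, Mvd of the mevalonate pathway, was 0.51 ± 0.11, lost without either 12 h replicate, and 0 sterol genes passed with spike-in scaling. In the sterol and fatty acid synthesis lists 7 of 23 and 8 of 16 had been lower at 12 h than at 6 h, against 6.32% of all entries. In the fit lacking 12 h replicate 2, 1 sterol gene, 1 fatty acid synthesis gene and 2 oxidation or droplet genes rose, and the call of Fasn was lost. Leaving out 24 h replicate 2 gave 2 rises in the sterol list and 2 among oxidation and droplet genes, and leaving out 12 h replicate 1 gave 3 and 1.

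Glycolysis had 4 higher and 1 lower of 15, where 14.6% and 13.8% of all entries were. The largest rise was that of Eno2, the neuronal and endocrine enolase, with 4.76 and 4.88 at 24 h, against 4.14 and 3.98 at 12 h (0.75 ± 0.09). Oxidative phosphorylation had 1 higher and 0 lower of 28 against the same shares, the complex II subunit Sdhc (0.52 ± 0.09). Without 12 h replicate 2, 1 glycolysis gene rose, whereas 2 did without 24 h replicate 2.

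Targets of NRF2, the regulator of antioxidant genes, rose in 6 of 17 and fell in 0, where 14.6% and 13.8% of all entries did. Hmox1, which breaks down haem, measured 3.70 and 3.69 at 24 h, against 2.33 and 2.18 at 12 h (1.44 ± 0.09, limma adjusted p = 0.00058), or 2.71-fold, and reached a mean of 4.98 at 48 h. Without 12 h replicate 1 or 2, 2 and 1 of the NRF2 targets rose. Cytosolic heat shock proteins had 3 higher and 1 lower of 17, rises near the 14.6% of all entries, with Dnajb4 at -2.40 and -2.43, against -3.69 and -3.45 (1.16 ± 0.11), and the small heat shock protein Hspb8 at 2.89 and 2.75, against 2.15 and 2.07 (0.71 ± 0.10). Hypoxia-inducible factor targets had 3 higher and 1 lower of 14, against the same share. Ndrg1, a stress-induced differentiation protein, measured 4.90 and 4.80, against 3.78 and 3.77 (1.08 ± 0.08), whereas Bnip3, a mitophagy receptor, measured 4.72 and 4.69, against 5.199 and 5.26 (-0.52 ± 0.08). The hypoxia list had 1 rise without 12 h replicate 1.

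The 15 rises with the largest fitted change among entries with a symbol included Vmn2r43, Gpnmb, Lcn2 and Lgals3, which were well above background on every array of both times. Vmn2r43, one of a family of closely related vomeronasal receptor genes, measured 2.15 and 1.95 at 24 h, against -3.74 and -3.56 at 12 h (5.70 ± 0.24), a 52.1-fold difference. It was high at 24 h alone, with means of -4.30 at 6 h and -4.69 at 48 h. The probe's match to relatives in the family was not tested. Lcn2, a secreted siderophore-binding lipocalin, measured 2.25 and 2.27, against -1.55 and -1.25 (3.66 ± 0.13), or 12.6-fold, and reached a mean of 4.33 at 48 h. Tff1, a secreted trefoil peptide of mucosa, measured -0.41 and -0.40, against -4.23 and -3.15 (3.28 ± 0.50), and Slco1b2, a liver-type organic anion transporter, measured 0.11 and 0.05, against -3.09 and -2.44 (2.85 ± 0.22). Tmem140 rose by 2.87 ± 0.22 and was well above background on 1 of the 12 h arrays.

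For 8 of the 15 rises no 12 h array was well above background, so only a lower bound on the fold is given. It is the 24 h mean over the 12 h mean, where each 12 h array is set to the higher of its own signal and the weakest signal well above background on that array. By this bound Myo1g, a myosin of blood cells, was at least 7.22-fold higher at 24 h, but its 24 h arrays were far apart (-3.65 and -0.66) and its call was lost without either 12 h array (limma adjusted p of up to 0.157). Prr32 was at least 6.79-fold higher, the kinesin gene Kif26b at least 5.25-fold, and Nyx, a retinal proteoglycan, at least 4.81-fold. Cd96, a receptor of lymphocytes, was at least 4.55-fold higher and the RNA export factor gene Nxf7 at least 3.20-fold. Bmp6, a growth factor, was at least 2.32-fold higher, and Prkg2, a cGMP-dependent kinase, at least 1.98-fold.

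**Figure D4:**
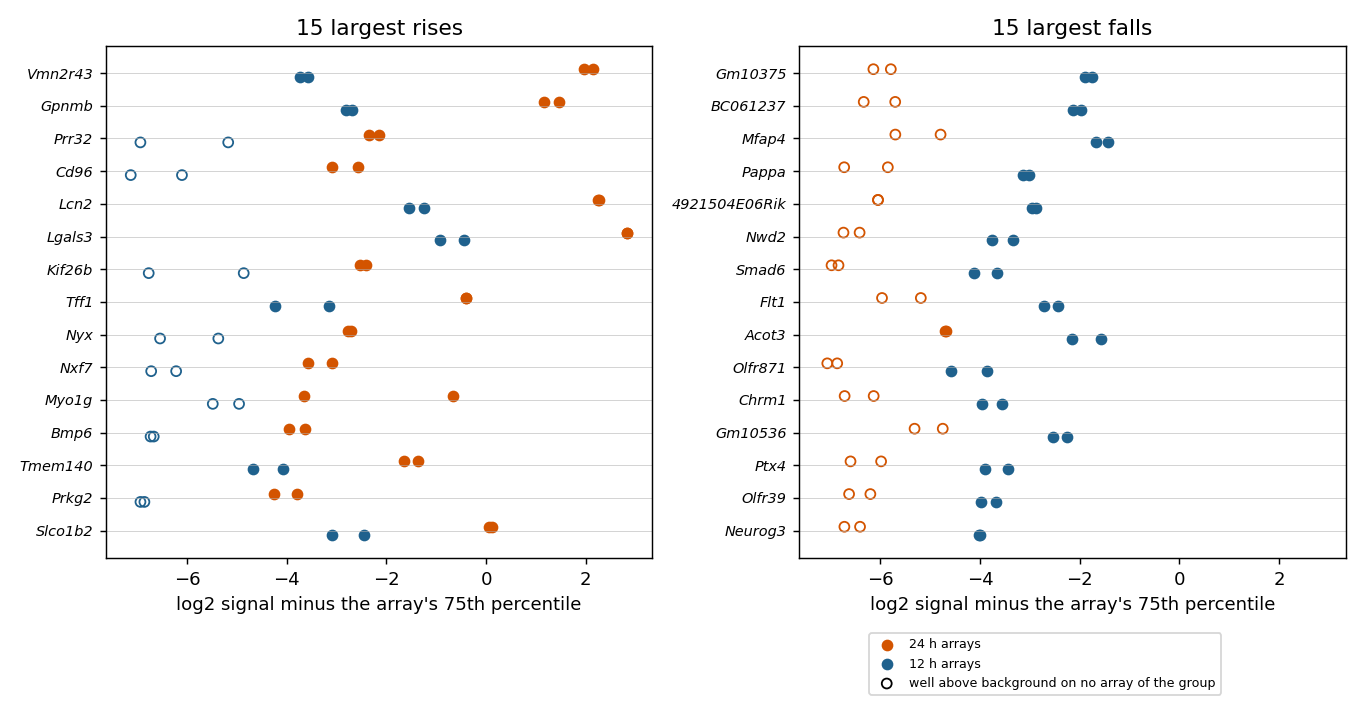
Log2 signal minus the array's 75th percentile of the 15 rises (left) and 15 falls (right) with the largest fitted change, 1 point per array, 24 h above 12 h in each row; open points mark groups with no array well above background. Of the rises 8 start from such a group at 12 h, and of the falls 14 end in one at 24 h.

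The 15 largest falls were mostly of weak probes that were above background at 12 h and not at 24 h. On no 24 h array were 14 of the 15 well above background, and the remaining one, Acot3, a peroxisomal thioesterase, was so on 1 of them (-2.83 ± 0.53, a call lost without 12 h replicate 1). With all probes of a symbol averaged, changes were smaller by over 1.5 times for Gm10375 (-2.06), BC061237 (-2.54), 4921504E06Rik (-1.54), Nwd2 (-1.003), Acot3 (-1.39) and Chrm1 (-1.32). Mfap4, an extracellular matrix protein, measured -4.79 and -5.70 at 24 h, against -1.42 and -1.67 at 12 h, at least 9.14-fold lower. The predicted gene Gm10375 was at least 7.91-fold lower, BC061237 at least 6.70-fold and Gm10536 at least 5.03-fold. Flt1, a VEGF receptor, measured -5.96 and -5.19, against -2.71 and -2.44, at least 4.68-fold lower, and 4921504E06Rik was at least 3.70-fold lower. Pappa, a protease of IGF-binding proteins, was at least 3.33-fold lower, and Nwd2, Ptx4 and the muscarinic receptor gene Chrm1 were at least 2.38-fold, 2.20-fold and 2.05-fold lower. The olfactory receptor genes Olfr39 and Olfr871 were at least 1.96-fold and 1.496-fold lower. Smad6, an inhibitor of BMP signalling, was at least 1.89-fold lower, and Neurog3, the transcription factor that specifies endocrine progenitors, at least 1.73-fold. Among these genes Smad6 was the 1 that had been higher at 6 h (mean -3.004) than at 12 h (-3.89). The other 14 had a higher mean at 12 h than at 6 h. These genes were chosen for a high 12 h signal relative to 24 h, so that pattern is partly set by the choice.

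The 12 to 24 h step was tested against its neighbours in each entry. It differed from the 6 to 12 h step in 2036 entries (8.2%) and from the 24 to 48 h step in 5900 (23.8%), where the slide differs too. Several of the genes with the lowest p-values turned round between steps. The tested difference is largest where the time shared by the steps is a peak or a trough. Such turns are therefore partly set by the choice of genes. Tssk5, a testis-type serine kinase, measured -3.63 and -3.46 at 24 h, against -1.38 and -1.37 at 12 h, after a mean of -3.07 at 6 h. Sfi1, a centrosome protein, had the same shape, with -3.37 and -3.07, against -1.21 and -1.46, after -2.98, although its 24 h minus 12 h change was -1.05 with all probes averaged and -1.89 for the brightest. Pla2g4b, a cytosolic phospholipase, measured 1.33 and 1.496, against 2.85 and 2.95, and was back at a mean of 3.67 at 48 h. Cfb, complement factor B, measured -2.75 and -2.76, against -3.40 and -3.34, and fell to a mean of -5.28 at 48 h, where it was well above background on 0 arrays.

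Markers of other cell types moved in single genes. Among other islet hormones, Ppy rose, with -1.72 and -1.41 at 24 h, against -2.60 and -2.11 at 12 h (0.79 ± 0.19), and so did the ghrelin gene Ghrl (0.77 ± 0.14), both lost without 12 h replicate 1 and Ppy also without 24 h replicate 2, while the glucagon gene Gcg was at 5.14 and 4.99, against 4.86 and 4.79, and did not pass (0.24). Of 7 exocrine markers 5 and of 6 mesenchymal markers 5 were well above background on none of the 4 arrays. Summed linear signals were 0.234 and 0.248 at 24 h, against 0.201 and 0.226 at 12 h, for exocrine markers, 0.455 and 0.481, against 0.418 and 0.408, for duct markers, and 0.174 and 0.248, against 0.373 and 0.389, for mesenchymal markers. Spp1, a secreted phosphoprotein used as a duct marker, was at 5.10 on each 24 h array, against 3.89 and 4.10 (1.103 ± 0.12). The collagen gene Col1a2 fell, with -3.55 and -2.55, against -1.79 and -1.75 (-1.28 ± 0.29), and its call was lost without either 12 h array. The immune marker sum was 12.1 and 16.4 at 24 h, against 22.5 and 23.0 at 12 h, carried by Itgam, an integrin of myeloid cells, with 3.48 and 3.90, against 4.43 and 4.44 (-0.74 ± 0.16, lost without either 12 h replicate). The change in Itgam became 0.02 when all its probes were averaged. The macrophage marker Adgre1 was well above background on none of the 4 arrays. What part these signals have in the gene changes above was not tested.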

How the data were processed

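RNA labelled with Cy3 was hybridised to 1-colour Agilent mouse arrays, 1 sample per array. The deposited scanner files, made with Agilent Feature Extraction 10.7.1.1 per the file headers, give a background-corrected intensity per spot, the median spot and local background intensity, and flags for spots well above background, saturated or outlying (the deposited flags are 0 or 1 and have no unit). The intensity of each non-outlier, non-control spot was averaged per probe and taken as log2 minus the array's 75th percentile. The authors' deposited series table holds log2 values of the same arrays, which matched these up to a constant per probe. Its columns have medians of -0.32 and -0.14 at 24 h and of -0.28 and -0.20 at 12 h, and the baseline subtracted from each probe stays unknown.

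The brightest probe stood for each symbol (20145 symbols). For Ccnb1, Gstm1, Mad2l1, Mcl1, Mrpl15, Ppara and Srebf2, counted as not called, a weaker probe was called in the direction opposite to that of the brightest. Entries well above background on both arrays of either time were tested, 24838 in all, with limma 3.58.1 in R 4.3.3 over 8 AP20187 arrays, with 1 coefficient per time, an adjusted p threshold of 0.05 and no block. A permutation test of 2 arrays against 2 could not go below p = 0.33. The replicate 1 minus replicate 2 differences correlated across tested entries at 0.0780 between 12 h and 24 h, so replicate numbers were not used as pairs. Replicate 1 arrays lay in row 1 of their slide and replicate 2 arrays in row 2. The fit was tested on simulated data. Alternatives covered scaling, background correction, filters, probe choice, samples, blocks, the variance prior and single arrays left out. Normexp used the median spot intensity.

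The members and the gene lists were chosen with earlier results of these data known. Named genes were the 15 largest called rises and falls without overlap, the 4 largest called members of each list, a fixed set of stress and beta cell genes, and the 5 lowest p-values in each difference of steps; other genes in the text were chosen after their values were seen. Promoter windows are from RefSeq (GRCm38.p6), matched by symbol. Results for some genes of the lists are not reported here.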

Additional observations from a re-analysis of the deposited data

Results flagged for a closer look

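These differences of steps passed limma's test across all entries. The 12 to 24 h step differed from the 6 to 12 h step in 2036 entries and from the 24 to 48 h step in 5900, and the later comparison crosses slides. Neighbouring steps share the arrays of the time between them. The genes named here had the lowest p-values, a choice that favours a turn at that time. Against the 6 to 12 h step, the difference was -5.75 for 4921504E06Rik, -3.87 for Tssk5, -3.54 for Sfi1 and -2.56 for Cd300lf on the log2 scale. Each of these had risen from 6 to 12 h and fell from 12 to 24 h. With all probes averaged, the 24 h minus 12 h change of Cd300lf was -0.66, against -1.37 for its brightest probe. For 4921504E06Rik no 24 h or 6 h array was well above background, so its values here and below rest on signals at background and are not measured sizes. It was 2.64 for Rbbp8nl, with -3.92 and -4.09 at 24 h, against -5.56 and -5.57 at 12 h, where, as at 6 h, it was well above background on 0 arrays, so that its size is not measured either. Against the 24 to 48 h step, the difference was 12.4 for Vmn2r43, which was high at 24 h alone, 3.13 for Cfb, which was well above background on 0 of the 48 h arrays, and 2.67 for 4930562C15Rik. It was -4.50 for 4921504E06Rik and -3.75 for Pla2g4b, both lower at 24 h than at 12 h and higher again at 48 h.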

How the results depend on the processing

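The counts of entries higher and lower at 24 h, 3620 and 3427, became 1514 and 682 with spike-in scaling, 1280 and 1511 with no filter on dim probes, and 1663 and 2043 with only the 4 arrays of 24 h and 12 h. Calls in the 6 to 12 h step, 3507, became 900 with spike-in scaling, 274 with no filter and 5450 with an intensity trend. The difference from the 6 to 12 h step, 2036 entries, became 808, 418 and 3806 under the same settings, and the difference from the 24 to 48 h step, 5900, became 3076 with spike-in scaling and 635 with no filter. The cause was not tested. With 1 array left out, 1653 to 3580 entries were higher, 1582 to 3137 lower, 229 to 4548 changed in the 6 to 12 h step, 10682 to 11923 in the 24 to 48 h step, and 163 to 2548 and 3130 to 4884 in the 2 differences of steps. Rises were 46.9% of calls with quantile normalization and 41.9% with the percentile taken over bright probes. With the replicate block 3263 were higher and 3259 lower, and 8 of 139 named called genes lost their call; the numbers do not pair the samples. Of those 139, spike-in scaling lost 60, no filter 55, the 4 arrays alone 43, and leaving out 12 h replicate 1 or 2 lost 44 and 45. Itgam changed sign, to 0.016 on the log2 scale, with the mean of all probes. Slide as a block was not run, because within the 8-array fit the slide separates only the 48 h arrays from the others, and 24 h and 12 h share a slide. Probes near background limit the largest falls.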
